A study of Mus musculus and synthetic RNA with 74 samples.

Results

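A blastocyst forms when the outer cells of the morula seal to each other and pump fluid into a cavity, and the genes described here are 9 that build this epithelium: Cdh1, Atp1b1, Aqp3, Aqp8, Aqp9, Tjp1, Ocln, Cldn4 and Cldn6. They were taken by symbol from the gene tables of single mouse embryos, where each of the 9 had 1 row among 20330 genes listed at E2.5 and 21199 genes listed at E3.5. The embryos came from superovulated heterozygous Mettl16 females mated with heterozygous males. The mutant allele carries a triple-stop cassette in Mettl16, was made in B6D2F1/J zygotes and was crossed to C57BL/6JRj mice. Polyadenylated RNA of each embryo was amplified by Smart-seq2, which does not keep the strand of the transcript. At E2.5, the morula, there were 31 embryos (5 wild-type, called WT, 14 heterozygous, called HET, and 12 knockout, called KO), and at E3.5, the blastocyst, there were 39 (18 WT, 9 HET and 12 KO). The genotype of each embryo was called by the authors from its own reads and could not be checked here. The values used are the authors' mean over all embryos of a stage, so they carry no SD, no value per genotype and no test, and levels at WT, HET and KO are not analysed here. The targeted gene, Mettl16, had a pooled mean normalized count of 778 at E2.5 and 669 at E3.5.

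The first step in making the cavity is adhesion. E-cadherin (Cdh1) joins neighbouring cells at adherens junctions and anchors them to the actin cortex through catenins. Tight junctions then close the space between cells, with claudins and occludin (Ocln) as the membrane strands and ZO-1 (Tjp1) as the scaffold beneath them. The Na+/K+-ATPase, of which Atp1b1 encodes a beta subunit, sets up the ion gradient across this barrier, and water follows through aquaporins. Aqp3 and Aqp9 are aquaglyceroporins, which pass glycerol as well as water, and Aqp8 is a water channel of a separate branch.

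Because the stage tables were normalized separately, levels are given as a share of each table's total, scaled to a table total of 1000000 normalized counts (CPM), and between genes only as CPM per kb of exon. The genotype mix also differed between the stages. At E2.5 and E3.5, WT embryos made up 16.1% and 46.2%, HET 45.2% and 23.1%, and KO 38.7% and 30.8%. Stage and genotype mix therefore cannot be told apart in any stage difference below. Library composition differed as well. Over 7681 genes with at least 3 exons and a mean exon count of at least 100 at both stages, the terminal exon held a median of 20.7% of a gene's exon counts at E2.5 and 34.9% at E3.5. Introns held 5.97% of all exon and intron counts at E2.5 and 8.77% at E3.5. In whole embryos, fewer cells of a type and less RNA per cell cannot be told apart.

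The labelled stages were checked against marker genes. Of 7 trophectoderm markers, 6 were over 2-fold higher at E3.5, and their summed share went from 343 to 3087 CPM. The exception was Tfap2c, at 5278 and 1849 normalized counts. Most of the sum at E3.5 was Krt18 (1296 CPM) and Krt8 (1136 CPM). All 5 oocyte markers with a mean of at least 10 were over 2-fold lower at E3.5, with a summed share of 90.9 and 5.69 CPM. Of the cumulus and granulosa markers 3 of 5 were listed at both stages, summing to 0.213 and 0.295 CPM, and of the sperm markers 2 of 3, summing to 0.375 and 0.349. The 4 blood and immune markers summed to 5.53 and 4.88 CPM. None of the listed markers was at 0. The 4 oviduct and uterine markers summed to 14.99 CPM at E2.5 and 26.1 at E3.5. At E2.5 most of this was Ovgp1, the oviduct glycoprotein (320 and 25.3 normalized counts), which was over 2-fold lower at E3.5 together with Pax8 (28.1 and 4.13), and at E3.5 most of it was Msx2 (4.88 and 679). The inner cell mass list (470.9 and 325 CPM) and the primitive endoderm list (213 and 209.5 CPM) had members on both sides, among them Nanog (552 and 4161 normalized counts) and Pou5f1 (9017 and 3527). The part that these markers had in the stage differences of the 9 genes was not tested.

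Atp1b1, Cldn6, Cdh1 and Aqp8 were each over 2-fold higher at E3.5 and none of the 9 was over 2-fold lower. Among all 14120 genes with a mean of at least 10 in either table, 35.3% were over 2-fold higher and 19.5% over 2-fold lower. A count of 4 in 9 therefore lies near what the whole table gave, and the median log2 difference of the 9 genes was 0.22 beside 0.41 for all genes. The other 5 genes (Aqp3, Aqp9, Tjp1, Ocln and Cldn4) stayed within 2-fold.

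**Figure D1:**
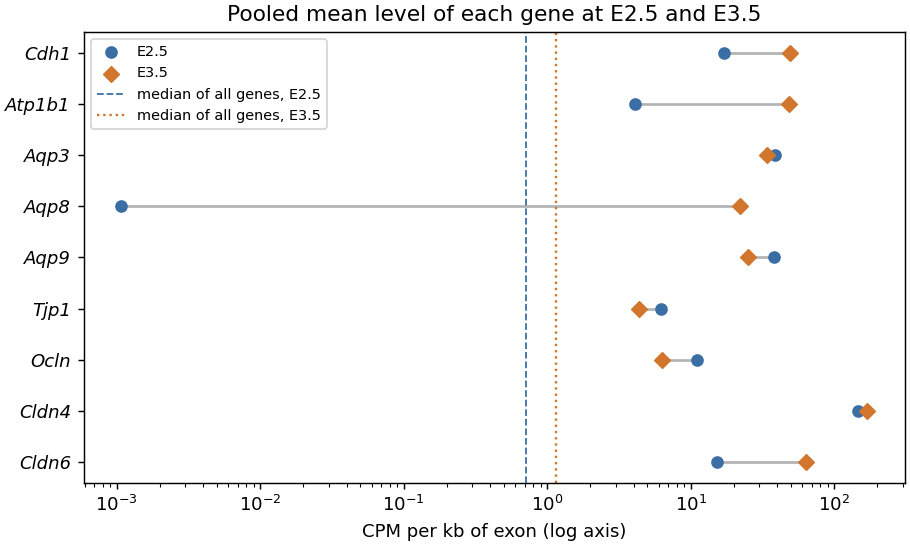
Pooled mean level of each of the 9 genes at E2.5 (circles) and E3.5 (diamonds), in CPM per kb of exon on a log axis, with dashed and dotted lines at the median of all genes. Aqp8 lies at 0.00107 at E2.5 and 22.0 at E3.5, while Cldn4 is the highest of the 9 at both stages.

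Cdh1 lies at chr8:106603350-106670247 on the plus strand of mm10, with 16 exons. Its mean was 1791 normalized counts at E2.5 and 5895 at E3.5. As a share this was 76.0 and 217 CPM, a log2 difference of 1.51. Per kb of exon Cdh1 stood at the 83.9th percentile of all genes at E2.5 and the 91.7th at E3.5. Among its exons the gain sat in a single one, as described with the exon profiles below.

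Atp1b1 (chr1:164437099-164458355, minus strand, 6 exons) had a mean of 250.1 normalized counts at E2.5 and 3422 at E3.5. Its share was 10.6 and 126 CPM, which is 11.9-fold higher at E3.5 and above 93.9% of all genes tested for this difference. In order of level per kb it ranked 8 of 9 at E2.5 and 4 of 9 at E3.5. Exon sequence of Nme7 on the opposite strand covers 7.80% of the exon bases of Atp1b1, and without strand the reads there cannot be assigned.

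Other ion transport genes did not share that difference. Of the 7 with a mean of at least 10, 0 were over 2-fold higher and 2 were over 2-fold lower. Among the lower ones was Atp1b2 (152 and 7.85 normalized counts), a beta subunit. The highest levels per kb in this list were those of Atp1b3, another beta subunit, with a share per kb of 111 at E2.5 and 68.0 at E3.5, and Fxyd4, a regulator of the pump, with 76.5 and 48.0. Atp1b1 itself went from 4.10 to 48.7 on the same scale. At E2.5 the share per kb of Atp1b3 was thus far above that of Atp1b1, and at E3.5 both were within 2-fold of each other.

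The water channels differed from each other. Aqp8 (chr7:123462294-123468003, plus strand) had a mean of 0.0375 normalized counts over the 31 embryos at E2.5, which sums to 1.16, or about 1 count in all. At E3.5 its mean was 889. The ratio of the shares was 20565, with an exact Poisson 95% interval of 4291 to 944413 that rests on this 1 count and covers counting error only. Aqp3 (chr4:41092724-41098183, minus strand) was level, with means of 1604 and 1618 and shares of 68.1 and 59.6 CPM. Aqp9 (chr9:71110659-71163289, minus strand) had means of 2803 and 2103 and shares of 119 and 77.5 CPM, a log2 difference of -0.62.

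At E2.5 Aqp3 and Aqp9 stood side by side per kb, at 38.6 and 38.2, and Aqp8 was at 0.00107. At E3.5 the 3 aquaporins were within 2-fold of each other, with 33.8 for Aqp3, 24.9 for Aqp9 and 22.0 for Aqp8. Among the other water channels 2 of 6 listed had a mean of at least 10. Aqp11, a channel of intracellular membranes, had means of 729 and 115, over 2-fold lower at E3.5, and Aqp7, an aquaglyceroporin, had 90.7 and 168. Mip, the lens fibre channel, was at 0.592 and 1.12. Aqp3 and Aqp9 also shared a gene structure. Exons 2, 3, 4 and 5 had the same length in both genes, 127, 138, 119 and 218 nt, and no other pair of the 9 genes had an exon of equal number and length.

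Among the tight junction genes Cldn4 was the most abundant per kb of the 9 at both stages. This single-exon gene (chr5:134945123-134946934, minus strand) had means of 6204 and 8355 normalized counts and levels of 145 and 169.9 CPM per kb, at the 96.8th and 97.0th percentile of all genes. Cldn6 (chr17:23679365-23682446, plus strand, 3 exons) had means of 539 and 2619 and shares of 22.9 and 96.5 CPM, 4.22-fold higher at E3.5. Claudins are the strand-forming proteins that set which ions pass between cells.

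Ocln (chr13:100497367-100552498, minus strand, 9 exons) had means of 826 and 543 and a log2 difference of -0.81. Tjp1 (chr7:65296165-65371244, minus strand, 28 exons) had means of 1038 and 845 and a log2 difference of -0.50. Per kb these were the lowest of the 9 genes at E3.5, at 6.27 for Ocln and 4.37 for Tjp1. With 1 pooled value a stage, the order of neighbouring genes cannot be set against a spread between embryos.

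Apart from the claudins, the rest of the junction was mostly higher at E3.5. The values of these lists are for whole genes and were not split into terminal and earlier exons. Of 20 other tight junction and polarity genes 16 were over 2-fold higher and 1 over 2-fold lower, with a median log2 difference of 1.91. The highest per kb were F11r, which encodes the adhesion molecule JAM-A (102 and 120), and Crb3, an apical polarity protein (138 and 43.6, the 1 that was lower). Of 9 other claudins with a mean of at least 10, 1 was over 2-fold higher (Cldn18, 1.11 and 19.4 normalized counts) and 2 were over 2-fold lower (Cldn19, 1132 and 84.4; Cldn10, 32.7 and 9.98). Cldn7, the highest of them, had a share per kb of 196 and 232, above that of Cldn4. Cldn3 was at 10.1 and 6.70 per kb, and Cldnd1, a claudin domain gene, at 4.51 and 7.08.

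Of 12 other adherens junction genes 10 were over 2-fold higher and 0 over 2-fold lower, with a median log2 difference of 1.55. Cdh1 itself had 1.51 over the whole gene and -0.78 without its terminal exon. Epcam, an epithelial adhesion molecule, was at 27.8 and 721 per kb. The catenins that link E-cadherin to actin followed, with 40.4 and 121 for Ctnna1 and 25.3 and 62.8 for Ctnnb1. Of 9 desmosome and keratin genes 7 were over 2-fold higher and 1, Krt19 (120 and 5.81 normalized counts), over 2-fold lower. Krt18 and Krt8, also counted among the trophectoderm markers above, led this list. They had 40.4 and 926 per kb for Krt18 and 15.3 and 629 for Krt8. Pkp2, a desmosomal plaque protein, was at 1.60 and 15.5.

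The sequences before the start sites of Atp1b1, Cldn6 and Aqp8 are shown because these genes were higher at E3.5 along all of their exons. Each line gives the 250 bases upstream of the RefSeq start (GRCm38.p6, the same assembly as mm10), with motif matches on either strand in capitals.
Atp1b1 (chr1:164458356-164458605, minus strand): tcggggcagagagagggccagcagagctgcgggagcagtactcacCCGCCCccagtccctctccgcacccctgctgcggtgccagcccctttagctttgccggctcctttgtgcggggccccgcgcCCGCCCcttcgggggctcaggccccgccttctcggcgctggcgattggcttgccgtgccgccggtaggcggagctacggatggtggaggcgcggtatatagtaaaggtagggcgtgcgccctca
Cldn6 (chr17:23679115-23679364, plus strand): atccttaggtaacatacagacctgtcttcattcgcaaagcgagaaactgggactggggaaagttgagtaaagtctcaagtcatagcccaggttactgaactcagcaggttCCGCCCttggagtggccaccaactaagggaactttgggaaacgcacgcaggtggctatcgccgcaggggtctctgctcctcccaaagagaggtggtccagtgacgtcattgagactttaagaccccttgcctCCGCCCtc
Aqp8 (chr7:123462044-123462293, plus strand): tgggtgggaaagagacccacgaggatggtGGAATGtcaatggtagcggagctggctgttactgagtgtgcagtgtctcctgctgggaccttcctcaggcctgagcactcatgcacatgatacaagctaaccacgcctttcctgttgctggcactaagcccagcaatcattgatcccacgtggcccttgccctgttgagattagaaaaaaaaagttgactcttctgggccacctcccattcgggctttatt
The motifs searched were GGAATG for TEAD factors, GCCNNNGGC for AP-2 factors, GGGCGG for SP and KLF factors, and TATAAA for the TATA box. TEAD matches were found in 12.6% of 32851 promoters, AP-2 in 13.7%, SP/KLF in 32.7% and the TATA box in 12.4%. Of the 8 genes with an entry, the SP/KLF letters stood before 6 (Atp1b1, Aqp3, Tjp1, Ocln, Cldn4 and Cldn6). The TEAD letters stood before Aqp8 only, the AP-2 letters before Ocln only and the TATA box before Aqp3 only. At Ocln the AP-2 and SP/KLF matches overlap. In the lines above, the capitals of Atp1b1 and Cldn6 are SP/KLF matches, 2 in each, and the single capital run of Aqp8 is the TEAD match. The GC content of the windows was 70.4% for Atp1b1, 53.6% for Cldn6 and 52.4% for Aqp8. A match to these letters is a description of the sequence, and no binding was measured.

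The exon and intron tables gave the same genes part by part. Exon density is the mean normalized count of an exon in CPM of all exon counts per kb, and exons are numbered in the direction of transcription. Each exon is compared mainly with itself at the other stage. Counts over all distinct exons summed to 42464300 at E2.5 and 35692400 at E3.5, beside whole-gene totals of 23557100 and 27145000. Reads over a junction were probably counted in more than 1 exon, to an extent that may differ by stage. The part this had in the exon differences below was not tested. With 1 transcript per gene, terminal exons held 18.8% of exon counts at E2.5 and 27.1% at E3.5. Exons before a terminal exon therefore held a smaller share at E3.5 across the table. The share of all such exons that were lower was not counted, so the exon counts below have no background beside them.

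Among its exons, Cdh1 was higher at E3.5 only in the terminal one. Its introns together had a mean of 375 at E2.5 and 1627 at E3.5. Exon 16, which holds 41.6% of the exon length, had a mean of 817 at E2.5 and 4555 at E3.5, and a density of 10.4 and 69.3. All 15 exons before it were lower at E3.5, 9 of them by over 2-fold. Exon 1 had a density of 13.9 and 4.90, exon 7 had 17.1 and 4.40, and exon 15 had 20.2 and 14.9. The share of Cdh1 exon counts in the terminal exon was thus 27.7% at E2.5 and 82.9% at E3.5. Taken as a share of all exons that precede a terminal exon, Cdh1 had a log2 difference of -0.78, and as a share of all terminal exons one of 2.20. The stage difference of Cdh1 therefore changed its sign with the part of the transcript that was counted.

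Terminal exons were denser at E3.5 across the table, and Cdh1 stood near the end of that distribution. The density of the terminal exon over that of the exons before it was higher at E3.5 in 91.1% of 7681 genes, with a median log2 shift of 1.14 and quartiles of 0.56 and 1.72. The shift of Cdh1 was 3.66, above 99.3% of genes. All 7 of the genes with a value in this measure had a positive shift, which is near the 91.1% of the table. Ocln followed at 2.09 (86.4th percentile), then Aqp9 at 1.49, Cldn6 at 1.38, Aqp3 at 1.15, Atp1b1 at 0.94 and Tjp1 at 0.36 (17.8th percentile).

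**Figure D2:**
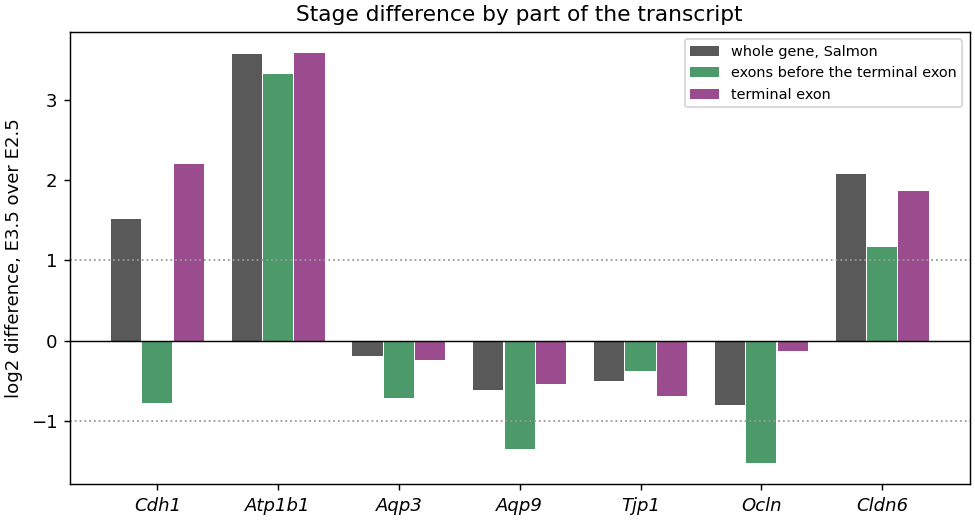
Log2 difference of E3.5 over E2.5 for 7 genes from the whole-gene Salmon estimate, from the exons before the terminal exon and from the terminal exon, each as a share of its own total, with dotted lines at 2-fold. Cdh1 has bars on both sides of 0 (1.51, -0.78 and 2.20), and all bars of Atp1b1 and Cldn6 are above 1.

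Without the terminal exon the count over 2-fold higher was 3 (Atp1b1 at 3.33, Cldn6 at 1.17 and Aqp8) and the count over 2-fold lower was 2 (Ocln at -1.53 and Aqp9 at -1.35). In this measure 30.1% of 13190 genes were over 2-fold higher and 28.8% over 2-fold lower. In terminal exons alone, where 37.5% of genes were higher and 20.3% lower, Atp1b1 (3.59), Cdh1 (2.20) and Cldn6 (1.87) were over 2-fold higher together with Aqp8, and no gene was over 2-fold lower.

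Atp1b1 was higher in each of its 6 exons. Exon 1 had a density of 2.05 at E2.5 and 8.53 at E3.5, exon 5 had 16.5 and 251, and exon 6 had 2.34 and 40.5. The log2 difference of the exons before the terminal one ran from 2.06 to 3.93. Cldn6 was also higher in all 3 exons, with 20.8 and 39.3 in exon 1 and 8.59 and 45.2 in exon 3. Aqp8 had counts in each of its 6 exons at E3.5, with densities from 11.3 to 31.0. At E2.5 its exon 2 had a mean of 0.038 and the other 5 exons were listed at 0. Its intron 2 had the same mean of 0.038, so the count may lie across their border.

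Aqp3, Aqp9 and Ocln were lower upstream of the terminal exon. All 5 such exons of Aqp3 were lower at E3.5, from 34.2 to 17.3 in exon 1 and from 66.8 to 40.4 in exon 5, while exon 6 had 21.0 and 25.4. All 5 of Aqp9 were over 2-fold lower, for example 79.3 and 28.7 in exon 4, while exon 6 had 24.3 and 24.0. All 8 of Ocln were over 2-fold lower. Ocln exon 1 had a density of 7.49 and 0.684, exon 3 had 10.5 and 2.19, and exon 9 had 4.25 and 5.60. As a share of all terminal exons, the log2 difference of the terminal exon was -0.25 for Aqp3, -0.54 for Aqp9 and -0.13 for Ocln, nearer to 0 in each gene than that of the exons before it.

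**Figure D3:**
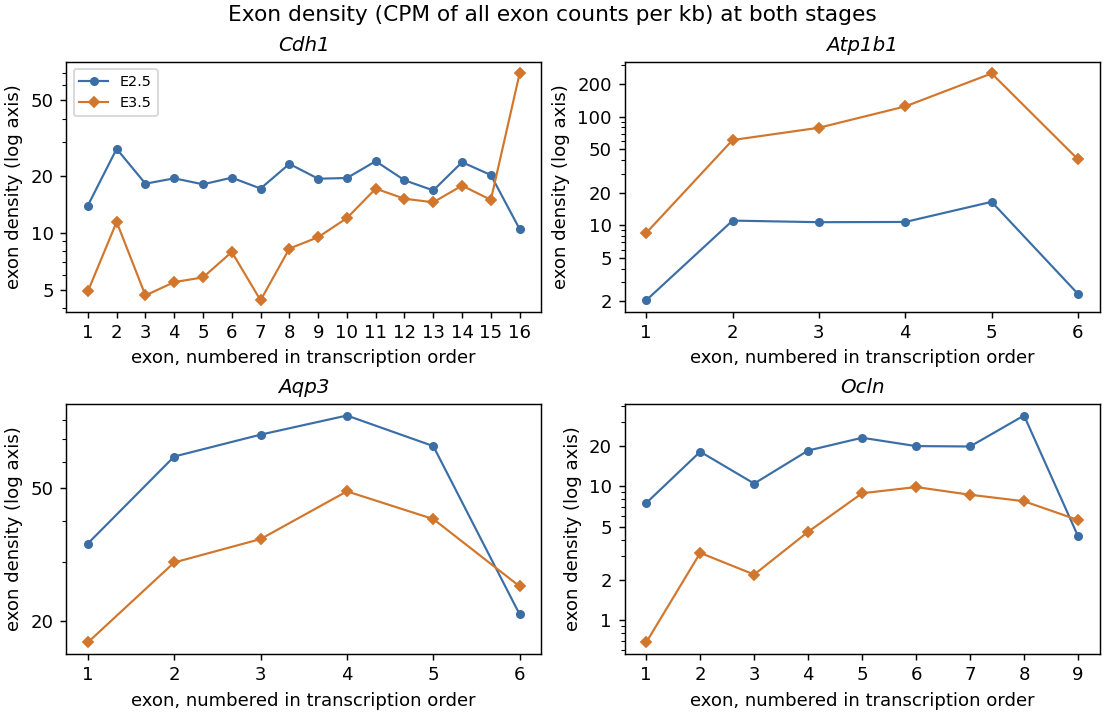
Exon density of Cdh1, Atp1b1, Aqp3 and Ocln at E2.5 (circles) and E3.5 (diamonds) by exon number, on log axes. The E3.5 line lies below the E2.5 line up to the terminal exon in Cdh1, Aqp3 and Ocln and crosses it there, and it lies above throughout in Atp1b1.

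The counts of Aqp9 lay mostly on its distal start. Its listed transcripts begin in 2 alternative first exons of 317 nt each, 656 nt apart. The distal one (chr9:71162973-71163289) had a mean of 421 at E2.5 and 111 at E3.5, and the proximal one (chr9:71162317-71162633) had 4.85 and 1.80. The proximal exon held 1.14% of the counts of both at E2.5 and 1.60% at E3.5.

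Tjp1 departed from the others inside the gene. ZO-1 exists in isoforms with and without the alpha domain, and the exon that is present in only 1 of the 2 listed transcripts is exon 20 of 28 (chr7:65314093-65314332, minus strand). It is coding, 240 nt or 80 codons long with no stop codon in its frame, and it is printed in capitals with 15 bases of intron on each side, since the isoform difference rests on it.
Tjp1 exon 20 (chr7:65314078-65314347, minus strand): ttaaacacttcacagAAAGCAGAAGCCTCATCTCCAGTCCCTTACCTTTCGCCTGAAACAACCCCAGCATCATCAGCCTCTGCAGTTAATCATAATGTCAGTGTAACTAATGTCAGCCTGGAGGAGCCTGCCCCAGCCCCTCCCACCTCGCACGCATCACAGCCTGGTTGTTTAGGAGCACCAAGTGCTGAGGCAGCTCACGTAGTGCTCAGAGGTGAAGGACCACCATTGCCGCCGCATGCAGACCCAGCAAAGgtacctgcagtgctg

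Exon 20 had a mean of 1.70 at E2.5 and 8.85 at E3.5. Its neighbours were lower at E3.5. Exon 19 had 79.8 and 44.1, and exon 21 had 170 and 52.7. In density, exon 20 went from 0.166 to 1.03, while exon 19 was at 5.36 and 3.52 and exon 21 at 4.59 and 1.70. Relative to exons 19 and 21 together, exon 20 stood at 3.46% at E2.5 and 46.5% at E3.5. Relative to the mean of all other internal exons it stood at 1.88% and 14.2%. By each measure the alternative exon was a larger part of Tjp1 in the blastocyst than in the morula, while its neighbours were lower there. The adjoining introns had densities of 0.147 and 0.191 (intron 19) and 0.0421 and 0.0188 (intron 20). At E2.5 exon 20 was thus near the level of intron 19, and its inclusion there cannot be told from intron reads. Summed over embryos its means amount to 52.6 normalized counts at E2.5 and 345 at E3.5.

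The remaining Tjp1 exons were uneven. Of the 27 exons before the terminal one 22 were lower at E3.5 and 5 were higher. Exons 2, 3 and 4 were among the higher ones, with densities of 25.6 and 36.8, 16.5 and 29.4, and 14.3 and 25.5. Exons 6 and 7, directly downstream of them after exon 5, had 4.54 and 0.946, and 4.46 and 1.07. Exons 2 to 4 thus stood above exon 6 at both stages, and the gap was wider at E3.5.

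**Figure D4:**
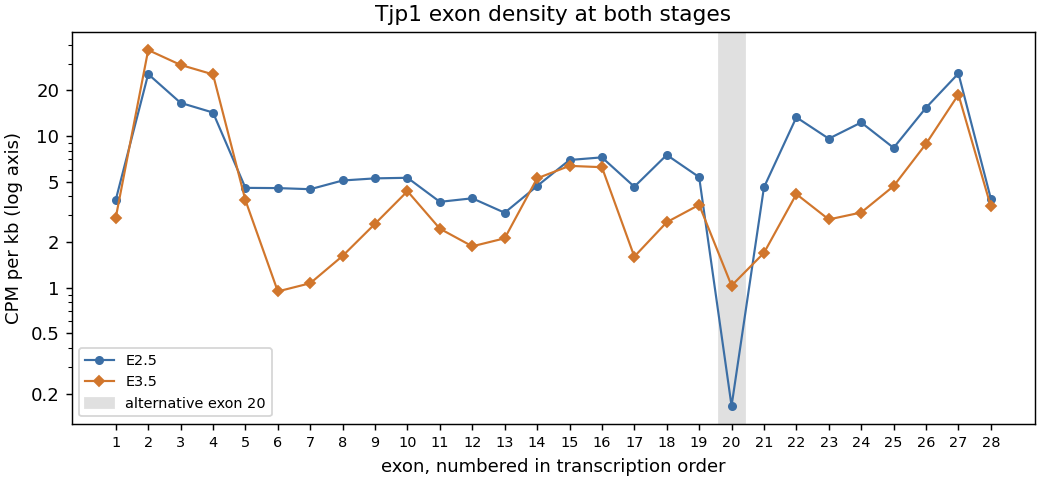
Exon density of Tjp1 at E2.5 (circles) and E3.5 (diamonds) for its 28 exons on a log axis, with the alternative exon 20 shaded. Exon 20 lies at 0.166 and 1.03, exons 2 to 4 are higher at E3.5, and exons 6 and 7 are lower.

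Intron density was expressed as a percent of the exon density of the same gene. Over 7915 genes its median was 0.717% at E2.5 (quartiles 0.291% and 1.65%) and 1.28% at E3.5 (quartiles 0.513% and 2.98%), and it was higher at E3.5 in 79.9% of genes. Among the 9 genes it was higher in 6 of the 7 with introns and with counts at both stages, near the share of the table. Tjp1 went from 1.57% to 5.17%, a 3.29-fold change and the highest level of the 7 at both stages. Ocln went from 0.272% to 0.915%, Aqp9 from 0.321% to 0.788% and Cdh1 from 0.899% to 2.10%. Atp1b1 (0.400% and 0.583%) and Aqp3 (0.163% and 0.221%) were also higher at E3.5. Cldn6 was the exception, with 0.660% and 0.307%. Ocln, Aqp9, Atp1b1, Aqp3 and Cldn6 were below the median of all genes at both stages, and Tjp1 and Cdh1 were above it. Aqp8 had 0.481% at E3.5 and too few counts at E2.5. Measured against the exons before the terminal exon, Cldn6 had 0.326% and 0.359%, Cdh1 had 0.727% and 7.16%, and Tjp1 had 1.43% and 4.87%. By that measure Cdh1 and not Tjp1 was the highest at E3.5. Without the first intron Aqp3 had 0.522% and 0.469%. In Cdh1, intron 2, which is 44.6 kb long, held 82.1% of the intron counts at E2.5 (a mean of 308) and 85.6% at E3.5 (1392).

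**Figure D5:**
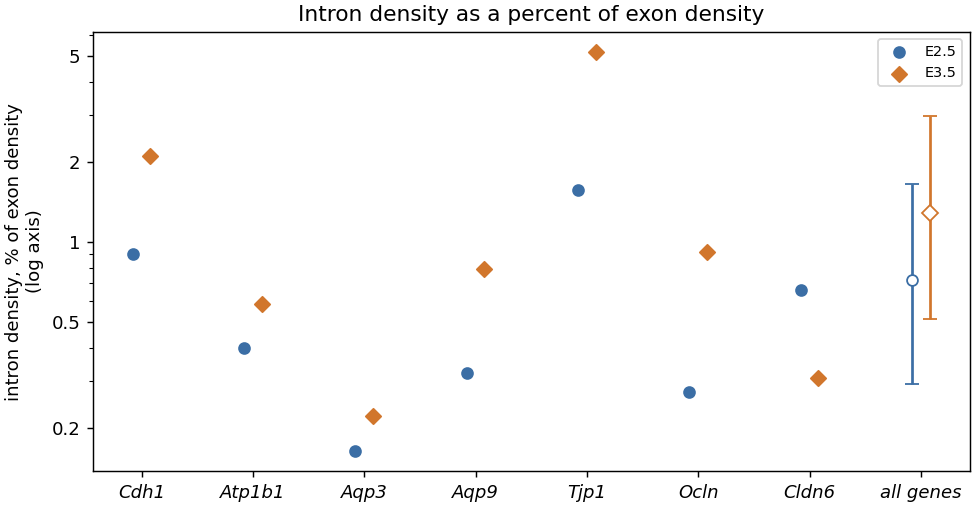
Intron density as a percent of exon density at E2.5 (circles) and E3.5 (diamonds) for 7 genes, on a log axis, with open symbols and bars for the median and quartiles of all genes at each stage. Tjp1 is highest at 1.57% and 5.17%, and Cldn6 is the gene whose value is lower at E3.5.

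The second experiment of the study measured which RNA structures METTL16 methylates. Recombinant human METTL16 was given a library of 30-nt RNAs with the nonamer of the MAT2A hairpin, UACAGAGAA, in the centre and random bases around it, in reactions numbered 11 and 12. The target A is position 15 of the 30 nt. Each reaction was sequenced before (input) and after immunoprecipitation of m6A (IP), and normalized reads were listed for 36835 predicted structures. The question here was whether the 9 genes hold the nonamer and how the structure predicted for it behaved in this assay.

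The nonamer was found on the sense strand of 3 of the 9 genes, at 8 sites: 4 in Cdh1, 2 in Aqp9 and 2 in Tjp1. Of 24467 genes 35.7% held at least 1 site. All 8 sites were in introns, which make up most of these genes. Introns cover 62466 of 66898 nt in Cdh1, 49985 of 52631 in Aqp9 and 68026 of 75080 in Tjp1. The sites are printed because the fold around the nonamer is what the assay measured. Each line gives the 11 bases before and the 10 bases after it, as RNA in the direction of transcription (coordinates on mm10), with the nonamer in capitals.
Cdh1 intron 2 (chr8:106605354-106605383, plus strand): guggugcaccuUACAGAGAAauagcggccc
Cdh1 intron 2 (chr8:106638162-106638191, plus strand): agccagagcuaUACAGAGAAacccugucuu
Cdh1 intron 2 (chr8:106646118-106646147, plus strand): ccagggcuacgUACAGAGAAgagacccagu
Cdh1 intron 15 (chr8:106667712-106667741, plus strand): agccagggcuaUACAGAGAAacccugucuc
Aqp9 intron 1 (chr9:71160745-71160774, minus strand): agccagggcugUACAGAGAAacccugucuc
Aqp9 intron 4 (chr9:71126234-71126263, minus strand): auaucagcaacUACAGAGAAugagauggag
Tjp1 intron 1 (chr7:65365350-65365379, minus strand): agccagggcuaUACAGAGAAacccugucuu
Tjp1 intron 1 (chr7:65364616-65364645, minus strand): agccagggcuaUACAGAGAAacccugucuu
In 5 of the 8 windows all 30 bases were marked as repeats in the reference genome, and these 5 windows resemble each other beyond the nonamer. A further window was marked in 15 of its 30 bases. The sites were in long genes. Per 100 kb there were 5.98 in Cdh1, 3.80 in Aqp9 and 2.66 in Tjp1, beside 2.08 over all genes, and Ocln had 0 in 55132 nt.

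RNAfold left the target A unpaired at 6 of the 8 sites. The share of all listed structures with an unpaired target A was not counted. The fold of 7 sites was listed in the assay, as 5 distinct structures, because Cdh1 intron 15 and both Tjp1 sites share a fold. That shared fold, in which all 9 bases of the nonamer lie in the loop, had 331 and 383 normalized reads in the inputs of reactions 11 and 12 and 263 and 236 in the IPs. Both IPs were below both inputs, with log2 ratios of -0.33 and -0.69, at the 37.7th percentile of all structures and thus between the quartiles. The fold of Aqp9 intron 1 had 47.7 and 41.5 in the inputs and 21.6 and 20.8 in the IPs, also lower in both reactions (log2 ratios of -0.99 and -0.85, 19.9th percentile). Its IP value in reaction 12 rests on 3 inferred reads, so the direction in that reaction is uncertain.

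The fold of Aqp9 intron 4 was higher in both IPs, with 229 and 242 in the inputs and 436 and 395 in the IPs, at the 90.7th percentile of all structures. The fold of the second Cdh1 site, in intron 2, was also higher in both, with 81.4 and 73.1 in the inputs and 113 and 125 in the IPs (85.6th percentile). These were the folds in which the target A was paired, although with 10 nt more on each side it was unpaired at the Cdh1 site. The Aqp9 intron 4 fold was weak, with a minimum free energy of -0.6 kcal/mol, beside -3.0 to -7.0 at the other sites. Neither fold was kept in the longer window. Among IP-enriched structures as a whole, the paper reports that the target A was more often unpaired, in a bulge or between stems. The fold of the first Cdh1 site had 24.4 and 25.1 in the inputs and 27.6 and 20.8 in the IPs. The IP value of reaction 12 rests on 3 inferred reads, so no direction is given for this site. The median log2 ratio over all structures was -0.27, with quartiles of -0.79 and 0.28, and ratios were taken after adding 5 to each value. These values describe short RNAs of the same predicted fold and random sequence. Methylation of the introns themselves was not measured.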

How the data were processed

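Per the labels and methods, the authors aligned reads of single embryos to RefSeq transcripts (mm10) with Salmon 0.7.2, counted exons and introns with featureCounts and normalized with DESeq2 1.18.1. The deposited signal in the embryo tables is the mean normalized count over all embryos of a stage. The same tables hold the authors' own fold changes and adjusted p-values between genotypes, and the in vitro table those of IP against input, none of which was used. Exon numbers were reassigned in the direction of transcription. Whether a read that spans 2 exons was counted in both is not given in the sources used here. At E2.5 the Aqp3 exons before the terminal one had a mean of 2058, above its whole-gene mean of 1604. The single exon of Cldn4 had 5745, beside a whole-gene mean of 6204. Reads over a junction were therefore probably counted in more than 1 exon. In the in vitro table the deposited signal is reads per predicted structure divided by size factors. The values were whole multiples (within 0.01) of 1 step in each library, which, if 1 step is 1 read, gives 20454163 and 18106811 reads for the inputs and 22118622 and 1154715 for the IPs of reactions 11 and 12, with the fewest in the IP of reaction 12. In the other 3 libraries the lowest value listed is several steps, so these read numbers are inferred.

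Here each mean was divided by its table total. The union of listed exons gave the length, and the longest coding RefSeq transcript of a gene gave its exons. Genes with a mean of at least 10 in either table were compared at 2-fold, and exon and intron ratios used genes with at least 100 at both stages. No test was run, since the tables hold 1 pooled value per gene and stage. Windows were folded with RNAfold 2.7.2 on GRCm38.p6. Promoter sequences are from RefSeq (GRCm38.p6), with 8 of the 9 genes matched, and Cdh1 not among them. Python 3.11.15, pandas 2.3.3 and scipy 1.17.1 were used. The named genes are all 9 members, the 3 highest per kb at E3.5 of each list, and any past 2-fold where 3 or fewer were. Some genes that this rule names are not reported here. The markers named outside this rule (Tfap2c, Ovgp1, Pax8, Msx2, Nanog and Pou5f1) were chosen after their values were seen. The members and lists were chosen with earlier results of these data known, and the split by terminal exon was chosen after seeing the data.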

Additional observations from a re-analysis of the deposited data

How the results depend on the processing

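Scaling by the median ratio of genes, leaving the top 1% of genes out of the totals, or using summed exon counts in place of the Salmon estimate kept the direction of all 27 single-gene stage differences, with a largest move of 0.37 on the log2 scale, and the counts of 4 genes over 2-fold higher and 0 lower. At a fold of 1.5 the count of lower genes was 2. Chosen after seeing the data, the exons before the terminal exon turned the log2 difference of Cdh1 from 1.51 to -0.78 and gave 2 genes over 2-fold lower (Ocln and Aqp9). Of the 9 genes 6 stood above the 75th percentile per kb at E2.5 among all genes, and 3 did among genes with a mean of at least 10. Tjp1 exon 20 stood at 1.88% and 14.2% of the internal exons, and at 3.46% and 46.5% of its neighbours, at E2.5 and E3.5. With 10 nt more on each side the target A was unpaired at 7 of 8 sites in place of 6, and only 1 of the 8 folds was kept. Of 30 values recomputed for these counts and summaries with other settings 26 stayed within 1.5-fold or within their spread. No paired analysis was possible because values of single embryos were not used and no test was run. Depth limits Aqp8 at E2.5, which rests on about 1 count, and the IP of reaction 12, where the folds of the first Cdh1 site and of Aqp9 intron 1 rest on 3 inferred reads each.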
